A study of Mus musculus with 36 samples.

Results

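Cd163 and 7 further genes that mark lung interstitial macrophages (Lyve1, Folr2, Stab1, Pf4, Fcrls, Mgl2 and Cmklr1) were followed through every library of a mouse study of inhaled fine particles. These 8 genes were taken by symbol from the 27562 genes of the deposited expression table. They were chosen by results of these same data: several are on the study's own gene lists for tissue-resident alveolar macrophages (TR-AΦ), and a library that stands apart in those cells was in view when they were picked. The PM2.5 comparison in TR-AΦ at 4-weeks, the 32-weeks against 4-weeks comparison in TR-AΦ, and differences between replicate numbers are therefore described with no test. Which further results were in view is not recorded, so the p-values given for other comparisons set a difference against the spread between libraries and are not independent evidence.

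Interstitial macrophages lie outside the air spaces, in the connective tissue around airways and vessels, and a Lyve1-high kind of them lines the vessels. They are known as scavenging and tissue-maintaining cells. Alveolar macrophages sit in the air spaces, take up surfactant and inhaled particles, and are known to express little of these genes, while blood monocytes that enter the lung can acquire them as they mature. Cd163 is the scavenger receptor for haemoglobin bound to haptoglobin, Stab1 (stabilin) takes up modified lipoproteins and matrix fragments, Lyve1 binds hyaluronan, and Folr2 is folate receptor beta. Fcrls is an Fc receptor-like protein of macrophages with a scavenger receptor domain, Mgl2 is the galactose-binding C-type lectin CD301b, Cmklr1 is the receptor for the chemoattractant chemerin, and Pf4 is the secreted chemokine CXCL4, also a main product of platelets.

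The animals were young adult male C57BL/6J mice of the CD45.2 form. They were lethally irradiated with the chest under lead, given busulfan, and transplanted with marrow of congenic CD45.1 mice, so that resident lung cells stayed CD45.2 and cells newly derived from marrow were CD45.1. They then breathed filtered air (FA) or concentrated PM2.5, airborne particles of small diameter, in exposure chambers for 4-weeks or 32-weeks. Alveolar macrophages (AΦ: CD64+, CD11c-high, CD11b-low) and lung monocytes (Ly6G-, MHC II-, CD64-low, CD11b-high) were sorted and their RNA was sequenced, with 3 libraries in each of 12 groups and 36 in all. The study drew 3 mice for each exposure and time, so AΦ and monocytes of both origins can come from the same animals, and the labels do not say which. At 4-weeks only CD45.2 cells were sequenced, as TR-AΦ and monocytes. At 32-weeks CD45.1 AΦ (BM-AΦ, of bone marrow origin), CD45.2 AΦ (TR-AΦ), CD45.1 monocytes and CD45.2 monocytes were sequenced from both exposures. The key that gives the 2 AΦ numbers of the labels as CD45.1 and CD45.2 was applied to the monocytes too, for which the labels do not spell it out. Mice entered the study only once nearly all circulating monocytes were CD45.1. Interstitial macrophages were not sorted for sequencing, so all values below come from AΦ and monocyte gates.

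Values are FPKM as deposited, fragments scaled to gene length and library size, and the number of reads behind each library is unknown. The FPKM of all genes summed to between 1839577 and 3339020 per library. The AΦ and monocyte marker lists differed between the 2 gates as the labels say, which does not show that a gate held only the labelled cells. The AΦ marker list (17 of its genes in the table) summed to 7873 to 15940 FPKM in AΦ and to 310 to 1891 FPKM in monocytes, and the monocyte list (14 genes) to 2492 to 6828 FPKM in monocytes and to 318 to 846 FPKM in AΦ. The MHC II gene H2-Aa stood at 62.6 to 2764 FPKM in monocytes although the gate was MHC II-. A list of other interstitial macrophage genes (35 in the table, H2-Aa among them) summed to 13541 to 19907 FPKM in CD45.2 monocytes of 32-weeks. It summed to 7861 to 15467 FPKM in CD45.1 monocytes and to 3460 to 8023 FPKM in monocytes of 4-weeks. The median sum of the monocyte list was 3572, 4412 and 6441 FPKM in the same order. Libraries of replicate 2 stood apart at both times. In both 4-weeks monocyte groups the neutrophil list reached 343 FPKM (FA) and 1048 FPKM (PM2.5) in replicate 2 against 24.0 to 51.7 FPKM in the other 4 libraries, and in TR-AΦ the B cell, T cell and neutrophil lists were highest in replicate 2 of each exposure. At 32-weeks the red cell list was highest in replicate 2 of all 6 groups, at 17.7 to 86.0 FPKM against 0 to 19.7 FPKM in replicates 0 and 1, and Cd163, Lyve1 and Pf4 were highest in replicate 2 of all 4 AΦ groups. At 4-weeks the red cell list was lowest in replicate 2 of every group, at 0 to 1.31 FPKM against 6.91 to 159 FPKM. Results that rest on these libraries are given with and without them.

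For 5 genes whose levels differ in pattern, the 200 bases before the RefSeq start site are shown (GRCm38.p6, the same assembly as mm10, written along the gene's strand). Capitals mark 2 short motifs, searched on both strands: GAGGAAG, a core of the sites bound by the myeloid factor PU.1, and TGCTGA, a core of the sites bound by MAF factors, which are known in interstitial macrophages. Cd163, Folr2 and Stab1 are among the genes highest in CD45.2 monocytes of 32-weeks, Fcrls shows both motifs, and Mgl2 follows another pattern.
Cd163 promoter, chr6:124304451-124304650 (+ strand): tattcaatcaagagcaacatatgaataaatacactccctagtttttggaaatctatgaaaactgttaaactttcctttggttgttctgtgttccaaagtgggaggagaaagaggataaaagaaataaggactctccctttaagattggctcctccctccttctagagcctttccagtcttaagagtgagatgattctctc
Folr2 promoter, chr7:101845332-101845531 (- strand): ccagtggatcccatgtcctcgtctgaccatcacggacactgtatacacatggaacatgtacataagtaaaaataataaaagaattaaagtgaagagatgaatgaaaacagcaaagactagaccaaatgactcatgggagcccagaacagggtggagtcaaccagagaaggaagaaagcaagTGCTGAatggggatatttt
Stab1 promoter, chr14:31168642-31168841 (- strand): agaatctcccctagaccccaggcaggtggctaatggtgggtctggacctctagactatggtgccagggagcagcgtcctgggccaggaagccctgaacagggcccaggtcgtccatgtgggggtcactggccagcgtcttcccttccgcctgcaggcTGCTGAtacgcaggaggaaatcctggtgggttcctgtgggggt
Fcrls promoter, chr3:87263525-87263724 (- strand): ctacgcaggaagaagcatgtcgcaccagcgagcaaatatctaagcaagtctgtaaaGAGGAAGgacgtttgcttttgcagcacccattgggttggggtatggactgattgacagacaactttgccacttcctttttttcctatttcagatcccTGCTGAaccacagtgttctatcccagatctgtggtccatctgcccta
Mgl2 promoter, chr11:70130157-70130356 (+ strand): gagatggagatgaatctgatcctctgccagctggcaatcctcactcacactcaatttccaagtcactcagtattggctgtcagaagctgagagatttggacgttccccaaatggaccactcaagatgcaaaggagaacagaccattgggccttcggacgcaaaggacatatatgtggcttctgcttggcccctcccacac
GAGGAAG was in 2 of the 8 windows found for 7 of the genes (Fcrls, 144 bases before the start, and Pf4, 9 bases before it on the opposite strand) and in 8.84% of all 32851 windows. TGCTGA was in 3 windows (Fcrls, Folr2 and Stab1, at 47, 19 and 43 bases before the start) and in 13.2% of all windows. The motifs do not overlap in these letters, a match is no evidence of binding, and the windows of Cd163 and Mgl2 hold neither. Folr2 has another start site, whose window is not shown and holds neither motif, and Lyve1 has no entry.

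Each of the 8 genes had its highest mean in CD45.2 monocytes of 32-weeks and its lowest in BM-AΦ or TR-AΦ of 32-weeks. Their summed level ran from 278 to 732 FPKM in the 6 CD45.2 monocyte libraries of 32-weeks, from 66.2 to 160 FPKM in CD45.1 monocytes of 32-weeks, and from 14.9 to 80.8 FPKM in CD45.2 monocytes of 4-weeks. In AΦ the sum was 16.2 to 136 FPKM in TR-AΦ of 4-weeks, 15.1 to 47.3 FPKM in BM-AΦ and 6.09 to 29.3 FPKM in TR-AΦ of 32-weeks. In such bulk samples fewer expressing cells and less RNA per cell cannot be told apart.

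**Figure D1:**
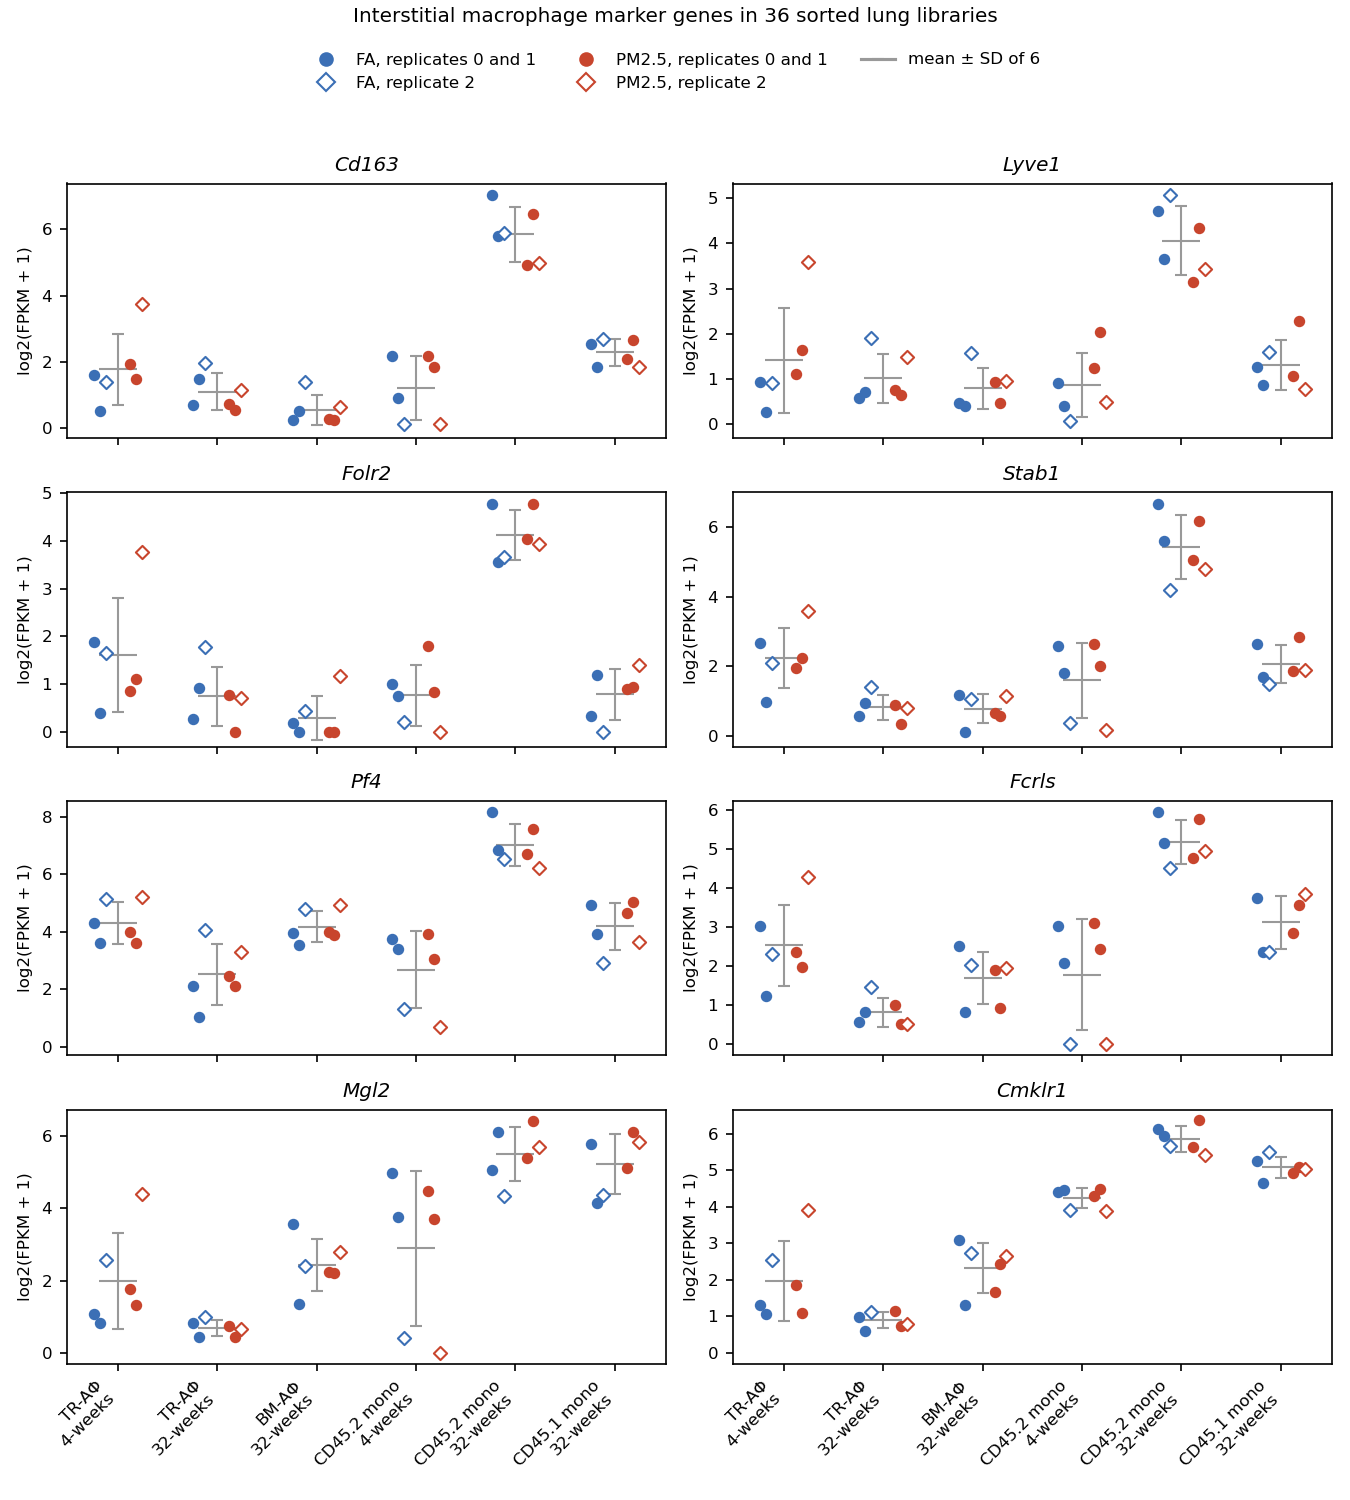
Levels of the 8 genes as log2(FPKM + 1) in each of the 36 libraries, by population and time. Blue marks FA and red PM2.5, filled dots are replicates 0 and 1, open diamonds are replicate 2, and the grey line and bar are the mean ± SD of 6 libraries. CD45.2 monocytes of 32-weeks hold the highest mean for every gene, with little separation from CD45.1 monocytes for Mgl2.

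Cd163 (ENSMUSG00000008845.9, chr6:124304655-124330527 in mm10) was far higher in 1 population than in the rest. CD45.2 monocytes of 32-weeks held 130, 55.0 and 57.8 FPKM in FA mice and 29.3, 87.7 and 30.7 FPKM in PM2.5 mice (replicates 0, 1 and 2). CD45.1 monocytes held 4.81, 2.60 and 5.45 FPKM in FA mice and 3.24, 5.33 and 2.61 FPKM in PM2.5 mice. Every CD45.2 library was thus above every CD45.1 library. CD45.2 monocytes of 4-weeks held 3.48, 0.872 and 0.0784 FPKM in FA mice and 3.48, 2.57 and 0.0941 FPKM in PM2.5 mice, with replicate 2 near 0 in both. TR-AΦ of 4-weeks held 2.03, 0.429 and 1.61 FPKM (FA) and 2.83, 1.77 and 12.5 FPKM (PM2.5). Replicate 2 of the PM2.5 group was the highest of all 30 libraries outside the CD45.2 monocytes of 32-weeks. TR-AΦ of 32-weeks held 0.630, 1.8 and 2.91 FPKM (FA) and 0.664, 0.457 and 1.23 FPKM (PM2.5), and BM-AΦ 0.182, 0.422 and 1.63 FPKM (FA) and 0.208, 0.169 and 0.566 FPKM (PM2.5). By mean ± SD (n = 6) the order of Cd163 was CD45.2 monocytes of 32-weeks (65.2 ± 38.4), CD45.1 monocytes (4.01 ± 1.34), TR-AΦ of 4-weeks (3.52 ± 4.45), monocytes of 4-weeks (1.76 ± 1.61), TR-AΦ of 32-weeks (1.28 ± 0.940) and BM-AΦ (0.530 ± 0.564). After the first, each neighbour in this order overlapped the next.

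The scavenger receptor Stab1 (ENSMUSG00000042286.13, chr14:31134852-31168641) had the same high point. CD45.2 monocytes of 32-weeks held 101, 47.6 and 17.2 FPKM in FA mice and 32.2, 71.5 and 27.0 FPKM in PM2.5 mice. CD45.1 monocytes held 5.25, 2.23 and 1.83 FPKM in FA mice and 2.64, 6.22 and 2.73 FPKM in PM2.5 mice, so the groups did not overlap. Means were 49.4 ± 31.5 FPKM in the former, then 4.54 ± 3.47 in TR-AΦ of 4-weeks, 3.48 ± 1.8 in CD45.1 monocytes, 2.70 ± 2.2 in monocytes of 4-weeks, 0.826 ± 0.469 in TR-AΦ of 32-weeks and 0.784 ± 0.475 in BM-AΦ (SD, n = 6), and neighbours after the first overlapped. Fcrls (ENSMUSG00000015852.13, chr3:87250757-87263599) held 60.7, 34.9 and 22.0 FPKM (FA) and 26.3, 54.3 and 29.8 FPKM (PM2.5) in CD45.2 monocytes of 32-weeks. CD45.1 monocytes held 12.3, 4.15 and 4.15 FPKM (FA) and 6.18, 10.8 and 13.5 FPKM (PM2.5), all below the lowest CD45.2 library. Fcrls was lowest in TR-AΦ of 32-weeks, at 0.802 ± 0.521 FPKM, and was listed at 0 in replicate 2 of both 4-weeks monocyte groups.

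The hyaluronan receptor Lyve1 (ENSMUSG00000030787.4, chr7:110850606-110863239) stood lower on the same scale. It held 25.4, 11.6 and 32.7 FPKM in FA mice and 7.88, 19.2 and 9.83 FPKM in PM2.5 mice in CD45.2 monocytes of 32-weeks. CD45.1 monocytes held 1.40, 0.836 and 2.01 FPKM (FA) and 1.09, 3.89 and 0.731 FPKM (PM2.5), again without overlap. The next population by mean was TR-AΦ of 4-weeks (2.72 ± 4.11 FPKM, n = 6), where the highest library held 11.0 FPKM and the median was 1.04 FPKM. The folate receptor Folr2 (ENSMUSG00000032725.10, chr7:101839987-101857194) held 26.3, 10.7 and 11.6 FPKM (FA) and 15.5, 26.1 and 14.4 FPKM (PM2.5) in CD45.2 monocytes of 32-weeks. CD45.1 monocytes held 0.256, 1.28 and 0 FPKM (FA) and 0.883, 0.925 and 1.66 FPKM (PM2.5), none above 1.66 FPKM. Folr2 had a listed value of 0 in 6 of 36 libraries, 3 of them BM-AΦ.

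Pf4 (ENSMUSG00000029373.7, chr5:90772434-90773383) had the highest mean FPKM of the 8 in CD45.2 monocytes of 32-weeks and in every AΦ population. CD45.2 monocytes of 32-weeks held 288, 113 and 92.0 FPKM (FA) and 104, 187 and 73.0 FPKM (PM2.5). CD45.1 monocytes held 29.1, 14.2 and 6.55 FPKM (FA) and 24.2, 31.5 and 11.5 FPKM (PM2.5), below every CD45.2 library. BM-AΦ (18.2 ± 7.64 FPKM), CD45.1 monocytes (19.5 ± 10.2 FPKM) and TR-AΦ of 4-weeks (20.9 ± 11.3 FPKM) lay within each other's spread. TR-AΦ of 32-weeks were lowest, at 6.11 ± 5.33 FPKM (n = 6).

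Mgl2 and Cmklr1 followed another order, in which monocytes of both origins were high. Mgl2 (ENSMUSG00000040950.13, chr11:70130328-70137550) held 32.4, 67.9 and 19.5 FPKM (FA) and 41.4, 84.4 and 51.2 FPKM (PM2.5) in CD45.2 monocytes of 32-weeks. CD45.1 monocytes held 54.2, 16.8 and 19.5 FPKM (FA) and 33.8, 68.0 and 56.0 FPKM (PM2.5), so the origins overlapped in both exposures. Monocytes of 4-weeks (12.8 ± 11.9 FPKM), TR-AΦ of 4-weeks (5.15 ± 7.50), BM-AΦ (5.0 ± 3.19) and TR-AΦ of 32-weeks (0.625 ± 0.246) came next. TR-AΦ of 32-weeks lay below every BM-AΦ library, and the other neighbours overlapped. Mgl2 has a near-identical neighbour, Clec10a, and how reads were split between them is uncertain. Cmklr1 (ENSMUSG00000042190.12, chr5:113612353-113650426) held 68.8, 60.6 and 49.2 FPKM (FA) and 48.4, 81.6 and 41.8 FPKM (PM2.5) in CD45.2 monocytes of 32-weeks. CD45.1 monocytes held 37.3, 24.0 and 43.7 FPKM (FA) and 29.4, 33.0 and 31.9 FPKM (PM2.5), overlapping by 1 library on each side. Monocytes of 4-weeks held 18.1 ± 3.45 FPKM of Cmklr1, all below the lowest monocyte library of 32-weeks. The highest AΦ library, at 14.1 FPKM, overlapped the 2 replicate 2 monocyte libraries of 4-weeks, at 14.0 and 13.6 FPKM, and every other AΦ library lay lower.

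The 32-weeks comparison of monocytes by origin asked how marrow-derived CD45.1 cells and CD45.2 cells from the same gate differ. Cd163 was 16.3-fold, Folr2 20.9-fold, Stab1 14.2-fold, Lyve1 10.7-fold, Pf4 7.31-fold and Fcrls 4.47-fold higher in CD45.2 monocytes by the ratio of mean FPKM. Mgl2 and Cmklr1 differed by 1.19-fold and 1.76-fold. For 6 of the 8 genes every CD45.2 library lay above every CD45.1 library, against 0.980% of all tested genes. The separation was present within each exposure: Cd163 was 18.9-fold higher in FA mice and 13.2-fold in PM2.5 mice, and Folr2 31.7-fold and 16.1-fold. Within each exposure the 3 CD45.2 and 3 CD45.1 libraries did not overlap for any gene but Mgl2. How many of all genes separate in such smaller splits was not computed, so this is a description only.

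In limma, on log2(FPKM + 1) over all 18 monocyte libraries with Benjamini-Hochberg adjustment over 12856 genes, 5 of the 8 passed an adjusted p under 0.05, all higher in CD45.2 monocytes. Of all genes 0.591% were called in that direction and 0.0778% in the other. The log2 difference was 3.57 for Cd163 (95% interval 2.65 to 4.49, adjusted p = 0.00071), 3.32 for Folr2 (2.63 to 4.01, adjusted p = 0.000135) and 3.34 for Stab1 (2.23 to 4.45, adjusted p = 0.00534). It was 2.75 for Lyve1 (2.01 to 3.50, adjusted p = 0.000919) and 2.82 for Pf4 (1.57 to 4.08, adjusted p = 0.0416). Fcrls, at 2.07 (0.86 to 3.28, adjusted p = 0.144), and Cmklr1, at 0.78 (0.37 to 1.20, adjusted p = 0.107), did not pass, and the interval of Mgl2 spanned 0 (0.28, -1.42 to 1.98, adjusted p = 0.965). In CD45.1 minus CD45.2 terms the median log2 difference of the 8 was -2.79, against 0.0021 over all genes. The Pf4 call was lost when any 1 of 10 of the 12 compared libraries was left out, with adjusted p up to 0.141, and those of Lyve1 without all replicate 2 libraries (adjusted p = 0.0628) and of Stab1 with a pseudocount of 0.1 (adjusted p = 0.0532) were lost as well. The call of Cd163 held under every alternative tried, with adjusted p up to 0.0353. Folr2 was called under every alternative too. However, it entered the monocyte tests only through the CD45.2 group of 32-weeks (a mean of 0.843 FPKM without that group). Its calls against that group, and its place in the counts of genes called or without overlap, are therefore no support.

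**Figure D2:**
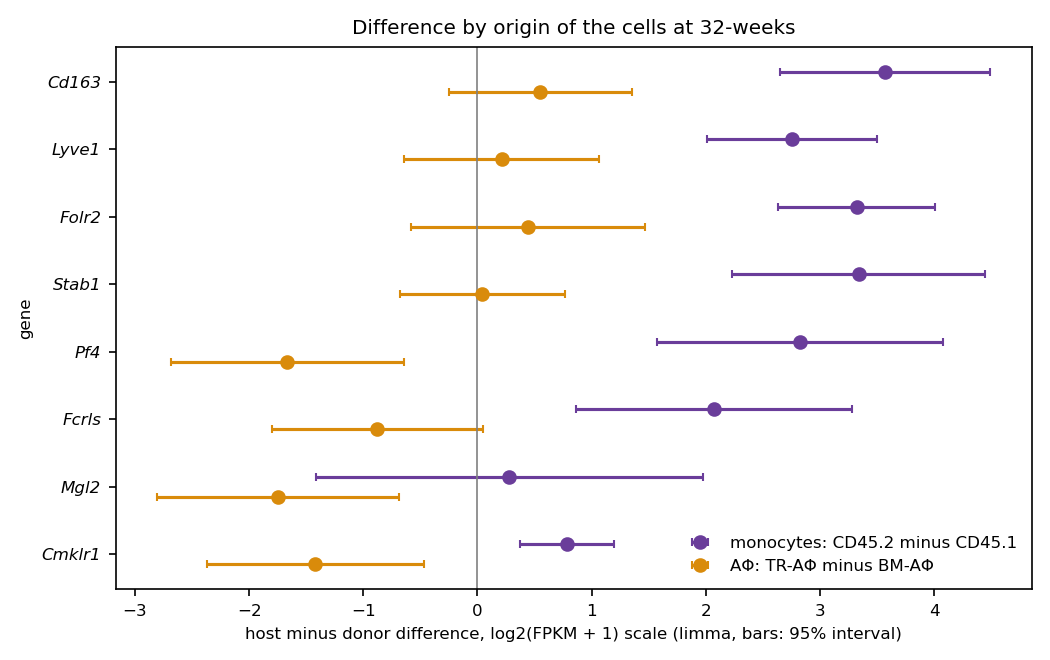
Estimated log2 difference of each gene by origin at 32-weeks, on the log2(FPKM + 1) scale, with 95% intervals from limma (6 against 6 libraries). Purple is CD45.2 minus CD45.1 monocytes and orange is TR-AΦ minus BM-AΦ. Cd163, Lyve1, Folr2, Stab1 and Pf4 lie between 2.75 and 3.57 in monocytes, while in AΦ no estimate is above 0.55.

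Markers of other cells were read in the same monocytes. Of 32 tested genes among the other interstitial macrophage genes, 6 were higher in CD45.2 than in CD45.1 monocytes (Maf, Cbr2, Gas6, Ccl7, Cd209f and Sepp1) and none lower. They are named because they passed. Gas6, a ligand of the receptors for apoptotic cells, stood at 9.56 to 34.8 FPKM in CD45.2 and at 0.863 to 2.49 FPKM in CD45.1 monocytes, and the transcription factor Maf at 31.5 to 67.0 and 13.4 to 26.1 FPKM. Of 15 tested AΦ genes 5 were higher in CD45.2 monocytes (Ear1, Plet1, Krt79, Atp6v0d2 and Krt19, also named for passing), and the AΦ list summed to 480 to 1891 FPKM there and to 310 to 892 FPKM in CD45.1 monocytes. The 8 genes together stood at 6.09 to 29.3 FPKM in TR-AΦ of 32-weeks. None of the 14 monocyte genes passed the test, and that list summed to 2492 to 5499 FPKM in CD45.2 and 3572 to 5664 FPKM in CD45.1 monocytes.

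Pf4 is shared with platelets and Lyve1 and Stab1 with lymphatic and sinusoidal endothelium, so those lists were read beside them. The platelet list (12 genes) summed to 3.45 to 11.3 FPKM in CD45.2 and to 2.11 to 7.10 FPKM in CD45.1 monocytes, with Gp9 at 0 in all 6 CD45.2 libraries, while Pf4 alone stood at 73.0 to 288 FPKM. The endothelial list (9 genes) summed to 8.14 to 35.3 FPKM against 5.14 to 14.1 FPKM, and the lymphatic endothelial list (6 genes) to 4.43 to 14.6 FPKM against 0.980 to 3.49 FPKM. The lymphatic regulator Prox1 was 0.453 to 3.18 FPKM in CD45.2 and 0 to 0.193 FPKM in CD45.1 monocytes. The T cell list summed to 11.5 to 38.3 FPKM against 0.373 to 6.60 FPKM, almost all of it Cd4 (11.5 to 37.6 FPKM), with Cd3d and Cd8a at 0 in every CD45.2 library. The part of the marker lists in the difference was not tested.

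**Figure D3:**
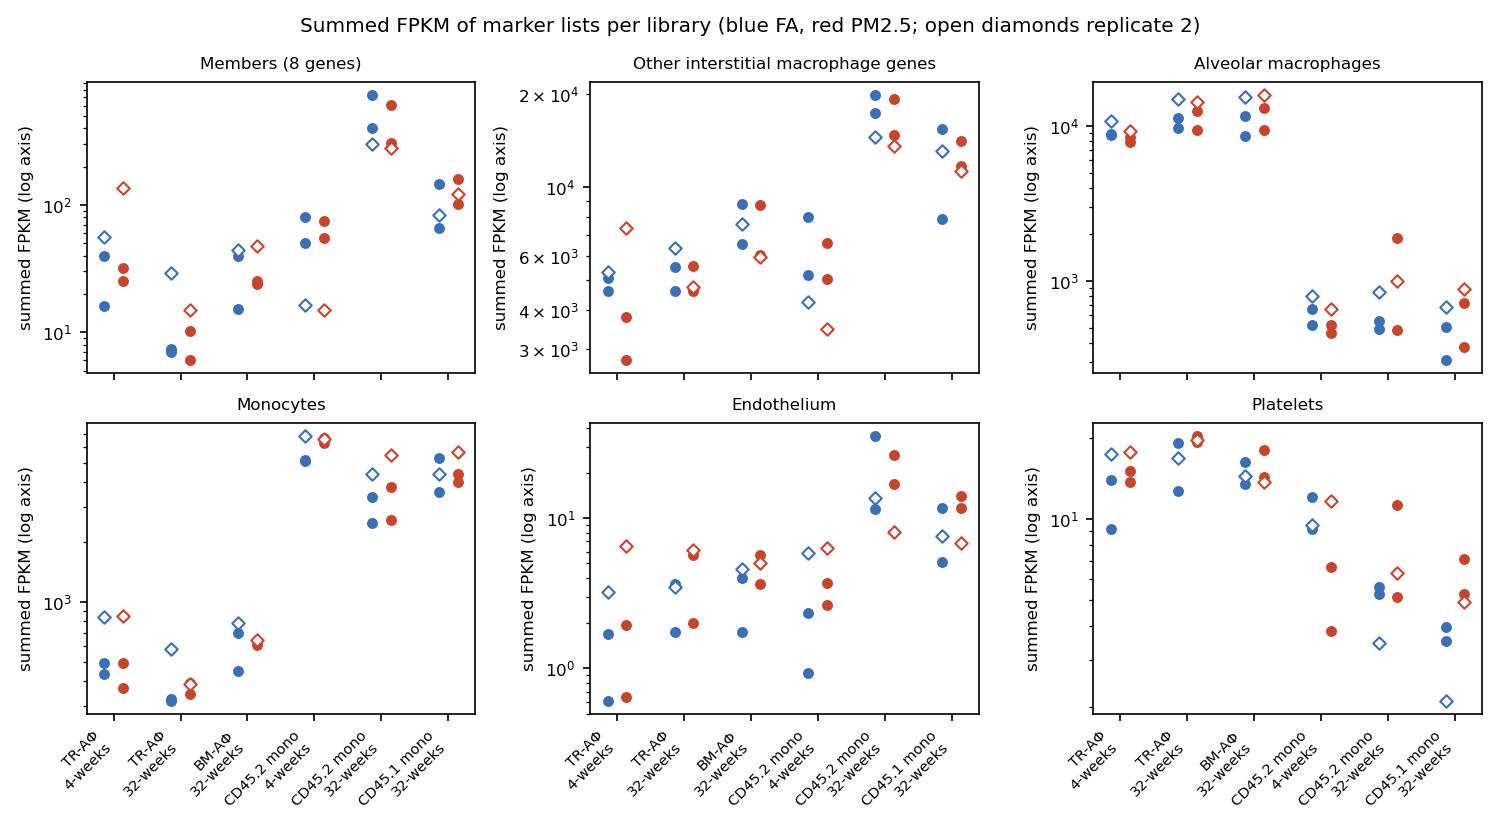
Summed FPKM of 6 marker lists in each library by population, on a log axis. The 8 genes sum to 278 to 732 FPKM in CD45.2 monocytes of 32-weeks and to 6.09 to 29.3 FPKM in TR-AΦ of 32-weeks.

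CD45.2 monocytes held more of every gene at 32-weeks than at 4-weeks. This comparison shares its 32-weeks libraries with the comparison by origin. The ratio of means was 37.0 for Cd163, 20.4 for Folr2, 18.9 for Pf4, 18.3 for Stab1, 17.3 for Lyve1, 10.2 for Fcrls, 3.86 for Mgl2 and 3.22 for Cmklr1. Every 32-weeks library lay above every 4-weeks library for all but Mgl2 (7 of 8, against 4.06% of all genes). All 8 rose in limma, against 7.06% of genes called higher and 7.83% called lower. Folr2 entered this test only through the 32-weeks CD45.2 group, so its call and its place in both counts are no support. The rise in log2 was 4.63 for Cd163 (95% interval 3.71 to 5.55, adjusted p = 4.87e-05), 4.32 for Pf4 (3.07 to 5.58, adjusted p = 0.000397), 3.81 for Stab1 (2.70 to 4.92, adjusted p = 0.000397) and 3.42 for Fcrls (2.21 to 4.63, adjusted p = 0.00125). Folr2 rose by 3.35 (adjusted p = 5.3e-05), Lyve1 by 3.20 (adjusted p = 0.000107), Mgl2 by 2.62 (0.92 to 4.31, adjusted p = 0.0386) and Cmklr1 by 1.62 (1.21 to 2.03, adjusted p = 0.000173). The median over the 8 was 3.39, and -0.05 over all genes.

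The 4-weeks monocyte libraries of replicate 2 were the lowest of their exposure for all 8 genes. With every replicate 2 library left out the rise was 4.29 for Cd163, 3.18 for Folr2, 3.61 for Stab1, 3.79 for Pf4, 2.82 for Lyve1, 2.76 for Fcrls and 1.61 for Cmklr1, all still called. That of Mgl2 was 1.51 with adjusted p = 0.106, and its call was also lost when any 1 of 8 of the 12 compared libraries was left out. The time points are separate groups of mice, so age, time since irradiation and transplant, and length of exposure to the chambers cannot be told apart.

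Of the other interstitial macrophage genes 28 of 32 rose from 4-weeks to 32-weeks in CD45.2 monocytes (median 2.49), and 4 of 14 monocyte genes fell. All 4 tested endothelial genes rose, and the endothelial list summed to 0.934 to 6.29 FPKM at 4-weeks against 8.14 to 35.3 FPKM at 32-weeks. The AΦ list had 9 of 15 genes higher and 3 lower. The part of these lists in the rise was not tested.

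Above all 30 other libraries of the study lay every CD45.2 monocyte library of 32-weeks for 4 of the 8 genes, Cd163, Stab1, Pf4 and Fcrls, against 0.218% of all genes. For Lyve1 and Folr2 the library that crossed was replicate 2 of PM2.5 exposed TR-AΦ at 4-weeks, with 11.0 and 12.6 FPKM. For Mgl2 and Cmklr1 it was a CD45.1 monocyte library, with 68.0 and 43.7 FPKM.

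In AΦ of 32-weeks Pf4, Mgl2 and Cmklr1 had higher means in BM-AΦ and Cd163 had not, although no gene of the 8 passed the adjusted test. Mgl2 was 8.0-fold higher in BM-AΦ than in TR-AΦ by ratio of means, and its libraries did not overlap: BM-AΦ held 10.8, 1.58 and 4.28 FPKM (FA) and 3.71, 3.63 and 5.99 FPKM (PM2.5), TR-AΦ 0.787, 0.364 and 0.986 FPKM (FA) and 0.677, 0.356 and 0.581 FPKM (PM2.5). Cmklr1 was 5.03-fold higher, with 7.53, 1.47 and 5.64 FPKM (FA) and 2.18, 4.41 and 5.29 FPKM (PM2.5) in BM-AΦ and 0.977, 0.505 and 1.17 FPKM (FA) and 1.21, 0.679 and 0.730 FPKM (PM2.5) in TR-AΦ, again with no overlap. Pf4 was 2.98-fold higher, with 14.6, 10.5 and 26.5 FPKM (FA) and 14.8, 13.9 and 29.2 FPKM (PM2.5) in BM-AΦ and 3.28, 1.04 and 15.6 FPKM (FA) and 4.49, 3.35 and 8.90 FPKM (PM2.5) in TR-AΦ. The libraries of Pf4 overlapped only through replicate 2 of the FA exposed TR-AΦ. Fcrls was 3.11-fold higher with overlap, and Stab1, Lyve1, Cd163 and Folr2 had ratios of 0.948, 0.710, 0.414 and 0.356. No share of all genes without overlap between BM-AΦ and TR-AΦ was computed, so the lack of overlap is a description only.

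None of the 8 was called in limma over 12665 genes, where 0.316% of all genes were. At an unadjusted p under 0.05, Mgl2 (1.74, 95% interval 0.68 to 2.80, adjusted p = 0.235), Pf4 (1.67, 0.64 to 2.69, adjusted p = 0.242) and Cmklr1 (1.42, 0.47 to 2.37, adjusted p = 0.306) passed, 3 of 8, as did 944 of all genes. Cd163 differed by -0.55 with an interval of -1.35 to 0.25 (adjusted p = 0.885). Pf4 passed without the replicate 2 libraries (1.92, adjusted p = 0.044), and Mgl2 passed when the model held only the compared libraries (adjusted p = 0.0472). Neither passed in any of the 12 fits without a single library or in most other alternatives, with limma adjusted p up to 0.489 for Pf4 and 0.534 for Mgl2. Monocyte genes had a median log2 difference of 0.82 in the same contrast with 0 of 12 called, and among AΦ genes only Marco differed (-3.78, lower in BM-AΦ). The dendritic cell list had a median of 1.11 with 1 of 4 genes called (Ccr7, higher in BM-AΦ), and its sums did not overlap, at 11.0 to 35.2 FPKM in BM-AΦ and 1.96 to 6.26 FPKM in TR-AΦ. The part of these lists in the 3 genes was not tested.

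The origin difference was set against itself across cell types in a model of all 36 libraries, a comparison added after the values above were seen. Taken with its sign, as CD45.2 minus CD45.1, it was called higher in monocytes than in AΦ for 7 of the 8 genes. Of all genes 1.08% were called in either direction. Folr2 is among the 7, but its mean over the 30 libraries outside CD45.2 monocytes of 32-weeks was 1.22 FPKM, near the filter of 1. The highest of those libraries, TR-AΦ PM2.5 replicate 2 of 4-weeks, held 12.6 FPKM. Its place in this count is therefore not taken as support. For Cmklr1 the estimate was larger in size in AΦ (-1.42) than in monocytes (0.78). The excess on the log2 scale was 3.02 for Cd163 (adjusted p = 0.00646), 4.49 for Pf4 (adjusted p = 0.00235) and 2.95 for Fcrls (adjusted p = 0.0424), and 2.02 for Mgl2 (adjusted p = 0.474). With a pseudocount of 0.1 only 2 genes were called, and Cd163 (adjusted p = 0.27) and Fcrls (adjusted p = 0.214) were not. The Fcrls call was also lost when any 1 of 18 of the 24 compared libraries was left out. Pf4, Fcrls and Cmklr1 had opposite signs in the 2 cell types, higher in CD45.2 monocytes and lower in CD45.2 AΦ by estimate.

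Levels in AΦ and monocytes were compared at matched origin and time. At 32-weeks TR-AΦ were below CD45.2 monocytes for all 8 genes in limma over 13307 genes, where 23.7% of genes were called lower and 23.6% higher. The difference was -4.75 for Cd163 (adjusted p = 2.22e-10), -3.05 for Lyve1 (adjusted p = 1.67e-07), -4.82 for Mgl2 (adjusted p = 1.37e-06) and -4.96 for Cmklr1 (adjusted p = 3.98e-12). By ratio of means, CD45.2 monocytes held 50.8-fold more Cd163, 59.7-fold more Stab1 and 79.1-fold more Mgl2. Folr2 had a mean near the filter outside those monocytes (1.22 FPKM), so its place in the count of 8 is not taken as support. BM-AΦ were below CD45.1 monocytes for 5 of 8, against 23.8% of all genes lower and 27.1% higher: Cd163 (-1.73, adjusted p = 0.000946), Stab1 (-1.29, adjusted p = 0.0184), Fcrls (-1.44, adjusted p = 0.0228), Mgl2 (-2.80, adjusted p = 0.00126) and Cmklr1 (-2.76, adjusted p = 1.97e-07). For Pf4 the estimate was -0.00 (adjusted p = 1). The calls of Stab1 and Fcrls were lost without BM-AΦ FA replicate 1 or CD45.1 monocyte FA replicate 0, that of Stab1 also without CD45.1 monocyte PM2.5 replicate 1, and that of Fcrls also without BM-AΦ PM2.5 replicate 1 or CD45.1 monocyte PM2.5 replicate 2 (adjusted p from 0.0507 to 0.0727).

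At 4-weeks, where CD45.2 monocytes were low in these genes, TR-AΦ were above them for Pf4 (1.62, adjusted p = 0.0171) and below them for Cmklr1 (-2.27, adjusted p = 4.19e-06). Of all genes 22.6% were called higher and 25.5% lower. Cd163 differed by 0.56 (adjusted p = 0.28), Lyve1 by 0.55 (adjusted p = 0.25), Folr2 by 0.85 (adjusted p = 0.0955), Stab1 and Fcrls by 0.65 and 0.75 (adjusted p = 0.244 each) and Mgl2 by -0.90 (adjusted p = 0.299). Without the replicate 2 libraries, which stand apart in both cell types, Cd163 was -0.39, Lyve1 -0.16, Folr2 -0.03, Stab1 -0.30 and Fcrls -0.52, Pf4 was 0.34 (adjusted p = 0.465), Mgl2 was -2.98 (adjusted p = 0.000159) and Cmklr1 -3.07. The Pf4 call was lost without any 1 of 3 libraries, TR-AΦ PM2.5 replicate 2 (adjusted p = 0.0528), monocyte FA replicate 2 (adjusted p = 0.0699) or monocyte PM2.5 replicate 2 (adjusted p = 0.0798).

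PM2.5 was compared with FA inside each population. In TR-AΦ at 4-weeks, described without a test, the ratio of mean FPKM, PM2.5 over FA, was above 1 for 7 of 8 genes: 7.11 for Lyve1, 4.20 for Cd163, 3.54 for Mgl2, 2.84 for Folr2, 2.41 for Cmklr1, 2.05 for Fcrls and 1.83 for Stab1, with 0.969 for Pf4. Cd163 was 1.35 ± 0.828 FPKM in FA and 5.69 ± 5.89 FPKM in PM2.5 exposed mice (SD, n = 3). These means rest on 1 library. PM2.5 replicate 2 was the highest of the 18 AΦ libraries for all 8 genes, at 4.71 times the next highest for Folr2, 4.28 times for Cd163, 4.01 times for Lyve1, 2.58 times for Fcrls and 1.05 times for Pf4. That library was in view when the genes were picked, and how many of all genes peak in it was not computed. The count is therefore no finding about the 8 genes. Lyve1 held 0.911, 0.211 and 0.892 FPKM (FA) and 1.17, 2.11 and 11.0 FPKM (PM2.5), the 3 PM2.5 values above the 3 FA values. Folr2 held 2.68, 0.326 and 2.15 FPKM (FA) and 0.819, 1.16 and 12.6 FPKM (PM2.5), so the other 2 PM2.5 libraries lay inside the range of FA. Mgl2 held 1.10, 0.791 and 4.91 FPKM (FA) and 2.42, 1.51 and 20.2 FPKM (PM2.5). Stab1 held 5.42, 0.968 and 3.24 FPKM (FA) and 2.90, 3.69 and 11.0 FPKM (PM2.5). Pf4, Fcrls and Cmklr1 likewise overlapped between the exposures.

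Without replicate 2 of both groups the ratio was above 1 for 5 of 8 genes, 2.93 for Lyve1, 2.08 for Mgl2, 1.88 for Cd163, 1.46 for Cmklr1 and 1.03 for Stab1, and it was 0.876 for Pf4, 0.819 for Fcrls and 0.658 for Folr2. In that PM2.5 replicate 2 library other lists were high too. The other interstitial macrophage genes summed to 7373 FPKM (2762 to 5297 in the other 5 libraries), the dendritic cell list to 24.8 FPKM (3.11 to 8.47), the B cell list to 32.9 FPKM (1.62 to 15.0), the neutrophil list to 60.1 FPKM (8.73 to 28.8) and the endothelial list to 6.53 FPKM (0.607 to 3.25). The AΦ list, at 9322 FPKM, was inside its range of 7873 to 10810 FPKM. Their part in the Cd163 level was not tested.

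**Figure D4:**
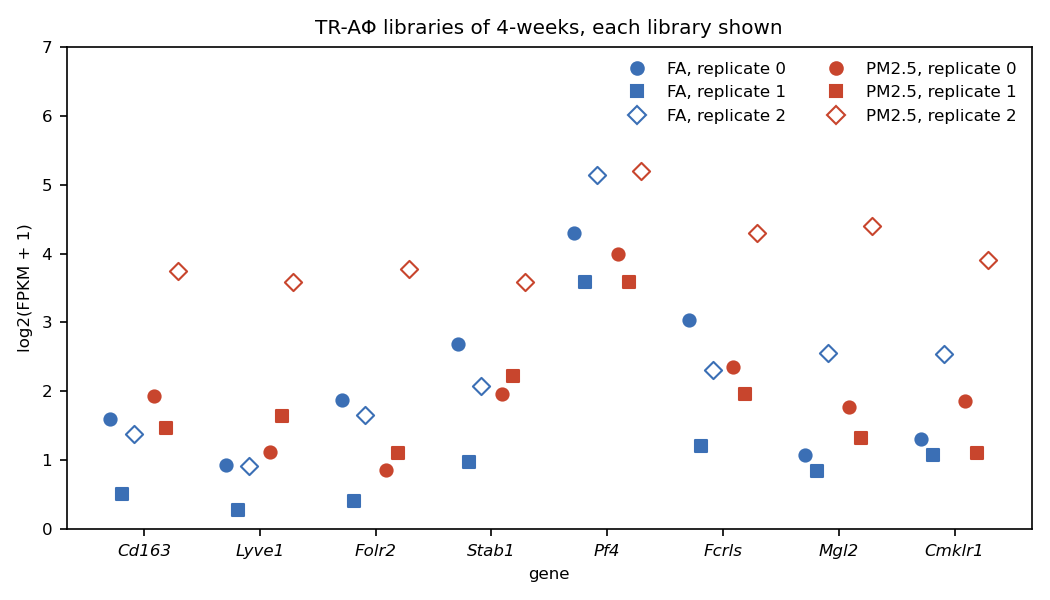
Levels of the 8 genes, as log2(FPKM + 1), in each of the 6 TR-AΦ libraries of 4-weeks, FA in blue and PM2.5 in red, with replicates 0, 1 and 2 as circles, squares and open diamonds. The PM2.5 replicate 2 library, which was in view when the genes were picked, is the highest point for all 8 genes. For example, it held 12.5 FPKM of Cd163 against 0.429 to 2.83 FPKM in the other 5.

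In the 5 populations left, none of the 8 genes passed the limma test of PM2.5 against FA. The share of all genes called was 0% in TR-AΦ of 32-weeks, 0.0158% in BM-AΦ, 0.00778% in monocytes of 4-weeks, 0% in CD45.1 monocytes and 0% in CD45.2 monocytes of 32-weeks. None of the 8 passed an unadjusted p under 0.05 in any of them, against 396, 259, 272, 609 and 547 of all genes, and their adjusted p ran from 0.999 to 1. Cd163, PM2.5 minus FA in log2, was -0.57 (95% interval -1.71 to 0.56) in TR-AΦ of 32-weeks, -0.33 (-1.47 to 0.80) in BM-AΦ and 0.32 (-0.99 to 1.62) in monocytes of 4-weeks. It was -0.16 (-1.46 to 1.14) in CD45.1 and -0.78 (-2.08 to 0.52) in CD45.2 monocytes of 32-weeks. A change of 1 log2 unit lay inside each of these intervals in at least 1 direction. Cmklr1 was the most closely bounded, at -0.04 (-0.62 to 0.55) in monocytes of 4-weeks, and Mgl2 the least, at 0.92 (-1.48 to 3.32) in CD45.1 monocytes. A test of whether the exposure effect differed between BM-AΦ and TR-AΦ was passed by none of the 8, nor at an unadjusted p under 0.05 (0.0158% of all genes called, 240 at an unadjusted p under 0.05).

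**Figure D5:**
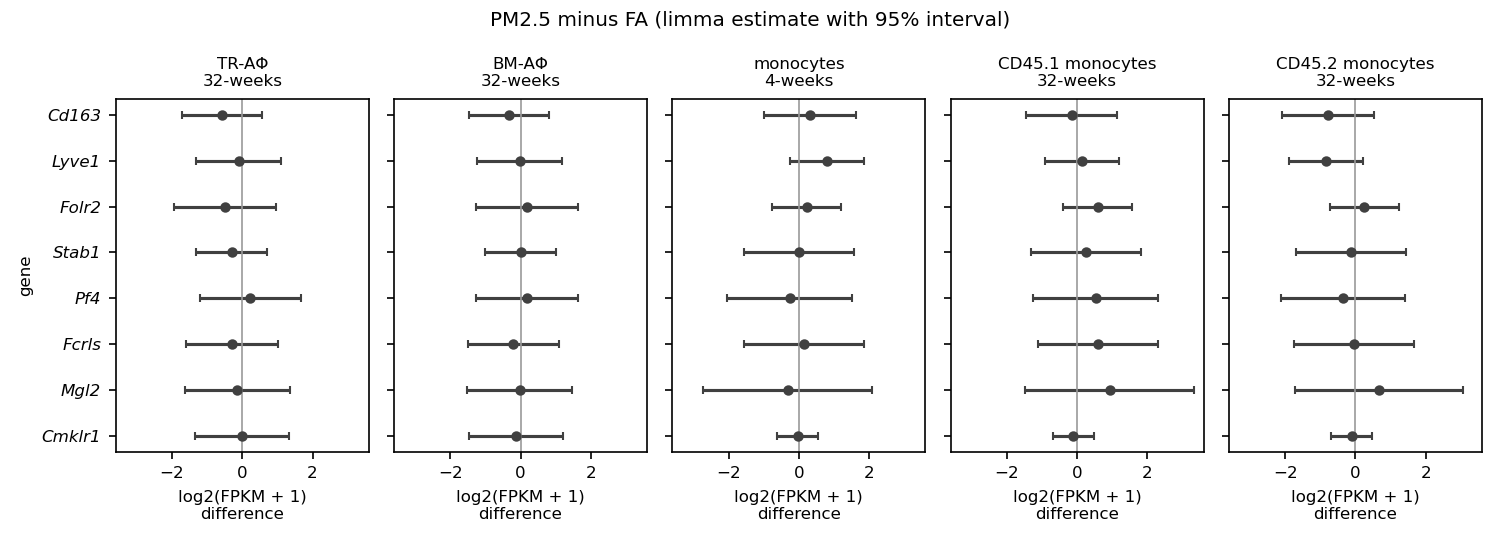
PM2.5 minus FA on the log2(FPKM + 1) scale for each gene in 5 populations, with 95% intervals from limma (3 against 3 libraries). Every interval includes 0, and for Cd163 the estimates run from -0.78 to 0.32.

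Over the time of the study TR-AΦ were described without a test, as this contrast was used in choosing the genes. From 4-weeks to 32-weeks mean Cd163 went from 3.52 to 1.28 FPKM and median Cd163 from 1.90 to 0.947 FPKM. By mean, Stab1 went from 4.54 to 0.826 FPKM, Pf4 from 20.9 to 6.11, Fcrls from 6.34 to 0.802, Mgl2 from 5.15 to 0.625, Cmklr1 from 4.21 to 0.878, Lyve1 from 2.72 to 1.16 and Folr2 from 3.3 to 0.819 FPKM. Without PM2.5 replicate 2 the 4-weeks mean of the other 5 libraries was 1.73 FPKM for Cd163, 3.25 for Stab1, 17.9 for Pf4, 3.89 for Fcrls, 2.15 for Mgl2, 2.24 for Cmklr1, 1.43 for Folr2 and 1.06 for Lyve1, which for Lyve1 is below its 32-weeks mean. Fcrls, Cmklr1, Mgl2, Stab1 and Pf4 had a median at 32-weeks (0.625, 0.854, 0.629, 0.796 and 3.92 FPKM) below the lowest 4-weeks library (1.32, 1.11, 0.791, 0.968 and 11.0 FPKM). The time points still overlapped for each of them, as the highest 32-weeks library held 1.76, 1.21, 0.986, 1.65 and 15.6 FPKM. Cd163, Lyve1 and Folr2 did not, with medians of 0.947, 0.662 and 0.674 FPKM against lowest libraries of 0.429, 0.211 and 0.326 FPKM. The share of all genes with such a fall was not computed.

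The genes varied together to different degrees. Over the 18 monocyte libraries, Pearson's r with Cd163 on the log2(FPKM + 1) scale was 0.96 for Stab1 and Lyve1, 0.95 for Pf4, 0.93 for Folr2, 0.92 for Cmklr1 and Fcrls and 0.63 for Mgl2. Over the 18 AΦ libraries it was 0.90 for Folr2, 0.88 for Lyve1, 0.83 for Stab1, 0.66 for Fcrls, 0.33 for Pf4, 0.32 for Cmklr1 and 0.31 for Mgl2. Mgl2 and Cmklr1 went with each other in AΦ (r = 0.97) and not with Cd163. These are descriptions, since the libraries share groups, origins and replicate numbers. Without the PM2.5 replicate 2 library of 4-weeks the r in AΦ was 0.77 for Folr2 and 0.72 for Lyve1.

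Across all tested genes the ones most like Cd163 in AΦ were Gas6 (r = 0.91), Folr2, Lyve1, F13a1 (0.85), Stab1, Il1rn (0.82), Igfbp4 (0.80), Snora16a (entry ENSMUSG00000105911.1, 0.78), Arhgap4 (0.77) and Mbtd1 (0.77), over 18 libraries. Without the PM2.5 replicate 2 library of 4-weeks r was 0.79 for Gas6, 0.77 for Arhgap4, 0.73 for F13a1 and 0.68 for Stab1 and Il1rn. It was 0.56 for Igfbp4, 0.55 for Mbtd1 and 0.34 for Snora16a. In monocytes they were Gas6 (0.98), Kitl (0.97), Slc7a8 (0.97), Stab1 and Lyve1 (0.96 each). Gas6 headed both lists. By Spearman's rank correlation 6 of the 10 AΦ genes and 1 of the 5 monocyte genes were again among the most like, and without replicate 2 libraries 2 and 3 were.

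Genes that act with the 8 receptors and ligands were read from a list of 19. In monocytes of 32-weeks none of the 13 tested passed between origins (median -0.39, CD45.1 minus CD45.2). From 4-weeks to 32-weeks in CD45.2 monocytes 4 rose and 5 fell. The mannose receptor Mrc1 rose by 3.35, the Mgl2 paralog Clec10a by 1.27, the folate carrier Slc19a1 by 1.17 and the hyaluronidase Hyal2 by 0.84. The haem oxygenase Hmox1, which breaks down the haem that Cd163 helps to bring in, fell by 1.0, the chemerin-binding receptor Ccrl2 fell by 2.15, the hyaluronan receptor Cd44 fell by 1.0, Il10ra fell by 0.68 and Il10 fell by 2.2. All 9 are named because they passed. The chemerin gene Rarres2 stood at 1.16 FPKM or less in every library and was at 0 in all BM-AΦ and all 4-weeks monocytes. In AΦ of 32-weeks none of 12 tested partners passed by origin.

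Among 13 macrophage regulators Maf alone passed between the monocyte origins, lower in CD45.1 cells (-1.27). From 4-weeks to 32-weeks Maf rose by 1.57 and Bhlhe41 by 1.71, while Pparg, the regulator of alveolar macrophages, fell by 1.8 and Bhlhe40 fell by 1.59 in CD45.2 monocytes. None of the 13 passed between BM-AΦ and TR-AΦ of 32-weeks.

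All 8 genes reached a mean of 1 FPKM in each cell type. In AΦ Folr2 did so only through PM2.5 replicate 2 of 4-weeks, with a mean of 0.812 FPKM without it.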

How the data were processed

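RNA of sorted AΦ and lung monocytes was made into libraries with a SMARTER kit by the authors, who trimmed reads with TrimGalore, aligned them with STAR to mm10 with the GENCODE annotation, and deposited FPKM values per gene from Cufflinks for 36 libraries. Read counts are not held in that table, so depth is unknown and no counting error was computed. The authors compared groups in pairs with Cuffdiff. None of those results entered the tests given here. The choice of genes was not independent of them, since several of the genes followed are on the study's own gene lists for TR-AΦ.

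The members and the marker, partner and regulator lists were chosen with earlier results of these data known. Genes named besides the 8 were the 10 (AΦ) and 5 (monocytes) with the highest Pearson r with Cd163, and list genes that passed a test. Groups were compared with limma 3.58.1 (R 4.3.3) on log2(FPKM + 1), keeping genes whose mean FPKM reached 1 in the model, made of 18 AΦ (12665 genes), 18 monocyte (12856) or all 36 libraries (13307), with a mean per group, a variance trend and Benjamini-Hochberg adjustment over all genes (threshold 0.05). A fold change on this scale understates that of low genes. The model was also run on simulated data with independent noise and changes planted in genes of higher level. These data held no shared mice, no replicate 2 that stands apart and no changes in low genes, so the run does not bear on those features. Alternatives were a pseudocount of 0.1, no filter, quantile normalization, a replicate block (by number, or by exposure, time and number), only the compared libraries, no replicate 2 libraries and each library left out in turn. Replicates within a group are separate mice.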

Additional observations from a re-analysis of the deposited data

Results flagged for a closer look

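The difference between origins at 32-weeks, CD45.2 minus CD45.1, was itself different in monocytes and AΦ for 7 of the 8 genes, by the interaction term of the limma model over all 36 libraries. The comparison was added after the values were seen, and 144 of 13307 genes passed it. Folr2 had a mean near the filter outside CD45.2 monocytes of 32-weeks (1.22 FPKM), so its place among the 7 is not taken as support. The excess in monocytes, in log2 units, was 3.02 for Cd163 (adjusted p = 0.00646; 3.57 in monocytes and 0.55 in AΦ), 2.54 for Lyve1 (adjusted p = 0.0136; 2.75 and 0.21) and 2.88 for Folr2 (adjusted p = 0.00964; 3.32 and 0.45). It was 3.3 for Stab1 (adjusted p = 0.00646; 3.34 and 0.04). For 3 genes the estimates had opposite signs: Pf4 with an excess of 4.49 (adjusted p = 0.00235; 2.82 and -1.67), Fcrls with 2.95 (adjusted p = 0.0424; 2.07 and -0.88) and Cmklr1 with 2.2 (adjusted p = 0.0211; 0.78 and -1.42). With a pseudocount of 0.1 the calls of Cd163 (adjusted p = 0.27), Lyve1 (adjusted p = 0.102), Folr2 (adjusted p = 0.272), Stab1 (adjusted p = 0.0927) and Fcrls (adjusted p = 0.214) were lost, and that of Fcrls was lost in 18 of 24 fits without a single library and in 4 further settings (adjusted p from 0.0532 to 0.0741). The call of Cmklr1 was lost without BM-AΦ FA replicate 0 (adjusted p = 0.0505) or CD45.2 monocyte PM2.5 replicate 1 (adjusted p = 0.0516).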

How the results depend on the processing

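The number of the 8 genes called moved by more than 1.5 times under few alternatives. For BM-AΦ against TR-AΦ it was 1 in place of 0 with a replicate block, without the replicate 2 libraries, and with only the compared libraries. For monocytes by origin it was 3 in place of 5 with a pseudocount of 0.1 (4 to 5 with single libraries left out), and for TR-AΦ against monocytes at 4-weeks 1 in place of 2 with only the compared libraries (1 to 3, with 1 without TR-AΦ PM2.5 replicate 2). With single libraries left out the count was 7 to 8 for monocytes by time, 8 for TR-AΦ against CD45.2 monocytes, 3 to 5 for BM-AΦ against CD45.1 monocytes, 5 to 7 for the origin by cell type comparison (2 in place of 7 with a pseudocount of 0.1) and 0 for all others. Stab1 in BM-AΦ against TR-AΦ ran from -0.14 to 0.12 and Pf4 in BM-AΦ against CD45.1 monocytes from -0.25 to 0.24 over the single libraries left out, the latter 0.0033 with a pseudocount of 0.1. Without the replicate 2 libraries, TR-AΦ minus monocytes at 4-weeks changed sign for Cd163 (-0.39), Lyve1 (-0.16), Folr2 (-0.0331), Stab1 (-0.30) and Fcrls (-0.52). The cause was not tested, and under filters with fewer libraries some low genes (Cd163, Lyve1 and Folr2 in AΦ) had no value.

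The labels number replicates alike in every group without saying what a number shares. Deviations of same-numbered libraries correlated by -0.09 to 0.21 between exposures (18 pairs, 13 best with their own number) and by -0.02 to 0.06 between AΦ origins (6 pairs, 5 best with their own), so the numbers were not taken as pairs. With the replicate block Pf4 in BM-AΦ against TR-AΦ had an adjusted p of 0.00306 and 85 of all genes were called, against 40 without it. Another replicate block, of exposure, time and number together and chosen after seeing the data, called none of the 8 and 22 of all genes there, and under it Fcrls in monocytes by origin was called (adjusted p = 0.0198) and Fcrls in the origin by cell type comparison was not (adjusted p = 0.0532).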
